A study of Gallus gallus with 16 samples.

Results

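The HOX genes were taken as every gene in the count table whose symbol starts with HOX, a cluster letter from A to D and a number, which gave 37 of 23910 genes. They fell into the 4 HOX clusters of the GRCg6a chicken assembly, with 11 genes of HOXA (chromosome 2, minus strand), 10 of HOXB (chromosome 27, 6151929 to 6290582, plus strand), 8 of HOXC (chromosome 33, 7539365 to 7663344, plus strand) and 8 of HOXD (chromosome 7, 16262309 to 16327333, minus strand). By paralog group, 7 genes were anterior (groups 1 to 3), 14 central (4 to 8) and 16 posterior (9 to 13). A further 10393 genes of the table carried no symbol and could not be reached by the rule.

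The libraries came from chicken ovarian cancer (COVCAR) cells, primary cultures grown from the ascites of laying hens with naturally arising ovarian cancer, labelled ovarian endometrioid adenocarcinoma. The hens were Leghorns of the Hy-Line W-36 strain, 2 to 4 years old. The 4 cultures C5, C7, C9 and C11 each stand for 1 hen, and were used at passage 3 apart from C11 at passage 2. Each culture was kept for 24 h in serum-free medium in ultra-low attachment plates, where cells grow as floating spheres, with metformin added at 0.5, 1 or 2 mM or with none (control, 0 mM), and RNA was then sequenced. This gave 16 libraries, 1 per culture and dose, so the 4 libraries of a culture are the same hen's cells under 4 doses, and the 4 libraries of a dose are 4 hens. No group holds normal ovary, oviduct or another tumour. Because a hen, its tumour, its culture and its passage come together, a difference among cultures cannot be told apart from a difference in passage for C11 or in the mix of cells that grew.

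HOX genes encode homeodomain transcription factors that tell cells where they lie along the head-to-tail axis. Within a cluster, genes at the 3′ end are switched on early and toward the head, and genes at the 5′ end later and toward the tail, and adult cells largely keep the code they were given, held by Polycomb and Trithorax chromatin proteins. In mouse and human, HOXA9, HOXA10, HOXA11 and HOXA13 mark successive stretches of the Müllerian duct from oviduct to vagina, while limb, gut and body wall fibroblasts carry codes of their own from all 4 clusters. TALE proteins such as MEIS bind DNA together with HOX proteins, and retinoic acid induces the 3′ genes in embryos.

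The libraries held between 34724071 and 42531887 counts, with a median of 37197760, and between 14888 and 16903 genes with a count. In 3 libraries the relation of level to gene length ran opposite to that of the other libraries of the same culture, namely C7 at 0.5 mM, C11 at 0.5 mM and C5 at 2 mM, and the comparisons of cultures and doses and the cluster ratios are also given without them. The labelled epithelial tumour cell was only partly visible in its markers. Keratin 7 (KRT7) reached between 7936 and 33891 counts, whereas the adhesion genes EPCAM and CDH1 had 0 to 25 and 18 to 277 counts, CLDN3 and ESRP1 had at most 9 and 6 counts, and the Müllerian regulator PAX2 had at most 36. The 10 fibroblast markers each reached at least 1 CPM (depth-scaled counts) on average in every culture and summed to 8187 to 67894 CPM, where the epithelial markers, KRT7 included, summed to 241 to 895 CPM. Of the 9 epithelial markers analysed, 5, 6, 5 and 6 averaged at least 1 CPM in C5, C7, C9 and C11. Of the 7 oviduct and ovarian tumour markers analysed, PAX2 included, 3 averaged at least 1 CPM in each culture. These 7 summed to 412 to 3473 CPM in C5, 32.2 to 1084 in C7, 43.2 to 677 in C9 and 135 to 1060 in C11. CLDN4, GRHL2, KRT8, KRT19, MUC16, OVAL and PAX8 were not analysed here. In bulk RNA of this kind fewer cells of a type and less RNA per cell cannot be told apart.

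Most of the HOX system was on. To compare genes, levels are given as RPKM, scaled CPM per kilobase of exon, and 24 of the 37 genes averaged at least 1 RPKM over the 16 libraries. They were 10 of 11 HOXA genes, 6 of 10 HOXB, 3 of 8 HOXC and 5 of 8 HOXD genes, or 5 of 7 anterior, 12 of 14 central and 7 of 16 posterior genes. A count was seen in all 16 libraries for 26 genes, and 15 stayed at or above 1 RPKM in each. At the other end, HOXC11 had no count, and HOXB1, HOXB9, HOXB13, HOXC12 and HOXC13 had at most 4 counts in any library. The highest mean levels belonged to central genes, HOXB4 at 31.2 RPKM, HOXA7 at 20.2, HOXB6 at 18.3 and HOXC6 at 15.2.

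**Figure D1:**
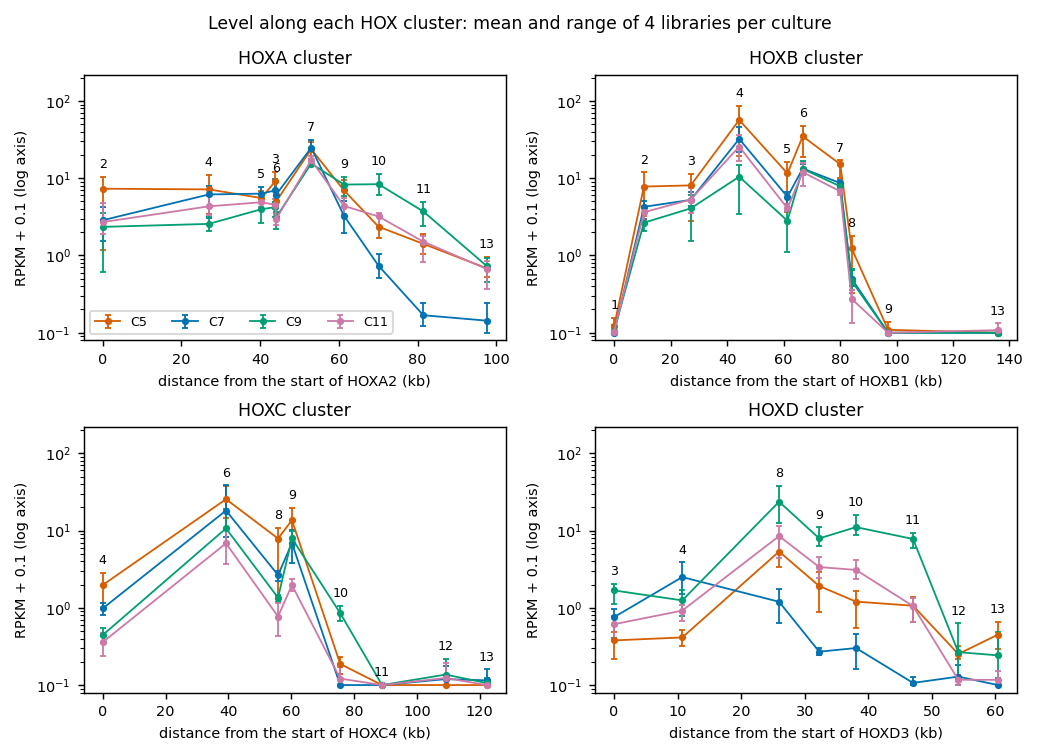
Level of 36 HOX genes (RPKM + 0.1, log axis) against the distance in kb from the first gene plotted of each cluster, with the paralog number above each point; points are means of the 4 libraries of a culture and bars their lowest and highest. HOXD10 spans 0.201 RPKM in C7 to 11 in C9 and HOXA10 spans 0.636 to 8.27, while HOXA5 and HOXA7 differ by 1.61-fold between their highest and lowest cultures.

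Read along the clusters, the last gene to reach a mean of 1 RPKM differed among cultures in HOXA, HOXB and HOXD. In HOXA the last gene with a culture mean of at least 1 RPKM was HOXA11 in C5, C9 and C11 (1.31, 3.61 and 1.41 RPKM) and HOXA9 in C7 (3.17 RPKM). In HOXB it was HOXB8 in C5 (1.14 RPKM) and HOXB7 in the others, and in HOXC it was HOXC9 in each culture. In HOXD it was HOXD11 in C9 (7.68 RPKM), HOXD10 in C5 and C11 (1.10 and 2.99 RPKM) and HOXD8 in C7 (1.10 RPKM). Several of these ends lie close to the threshold. HOXD11 averaged 0.964 RPKM in C5 and 0.952 in C11. HOXB8 ran from 0.226 to 1.68 RPKM over the C5 libraries and HOXD8 from 0.529 to 1.64 over those of C7.

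**Figure D2:**
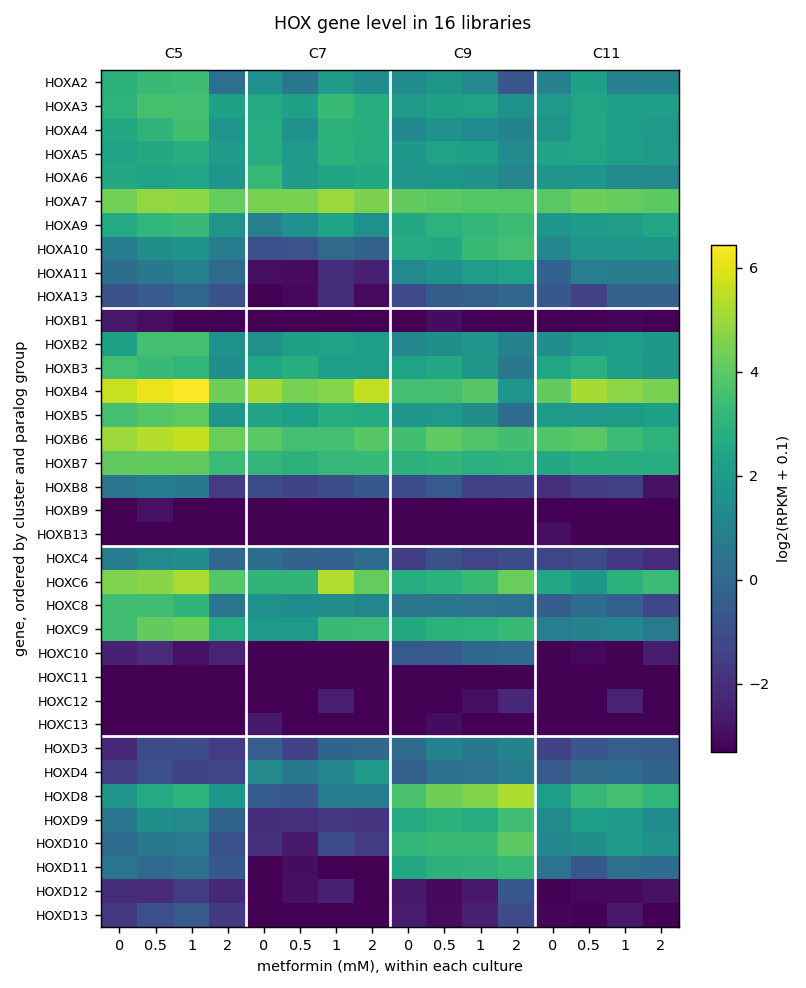
Level of 36 HOX genes (rows, by cluster and paralog group) in the 16 libraries (columns, by culture and metformin dose), as log2(RPKM + 0.1). The 4 columns of a culture resemble each other more than the columns of a dose do, C7 is dark from HOXA11 to HOXA13 and from HOXD9 to HOXD13, and the library of C5 at 2 mM is darker than the other C5 columns at HOXA2, HOXB4 and HOXC8.

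Values below run from 0 through 0.5 and 1 to 2 mM within each culture. HOXA2, which with HOXA3 patterns the hindbrain and pharynx of the embryo, stood at 7.67, 9.83, 10.3 and 1.07 RPKM (C5), 2.94, 1.42, 4.12 and 2.57 (C7), 2.60, 3.46, 2.42 and 0.515 (C9) and 1.91, 4.69, 1.82 and 2.0 (C11). Its 3 high C5 libraries were separated from the rest, but C5 at 2 mM, one of the libraries that stand apart, lay among the lowest. HOXA3 stood at 7.88, 12.1, 11.7 and 4.67 RPKM (C5), 6.16, 4.76, 9.54 and 7.06 (C7), 3.86, 4.76, 4.85 and 3.04 (C9) and 3.84, 5.23, 4.20 and 4.43 (C11). The cultures overlapped in part, and 315 and 256 bases of the annotated HOXA3 exons are also exons of HOXA5 and HOXA6 on the same strand, so reads there were counted for both genes.

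HOXA4, HOXA5, HOXA6 and HOXA7 are the central genes of the cluster, expressed in trunk tissues of the embryo. HOXA4 stood at 5.96, 8.03, 11 and 3.32 RPKM (C5), 6.56, 2.99, 7.72 and 7.0 (C7), 2.25, 3.06, 2.60 and 1.95 (C9) and 3.20, 5.77, 4.19 and 3.76 (C11). C9 was the lowest culture and did not overlap C5, the highest. HOXA5, which patterns the lung and neck in mouse, stood at 4.97, 6.06, 6.78 and 3.96 RPKM (C5), 6.47, 4.09, 7.56 and 6.76 (C7), 3.63, 4.81, 4.50 and 2.55 (C9) and 5.13, 5.40, 4.52 and 4.11 (C11). Its culture means differed by only 1.61-fold, and every pair of neighbouring cultures in order of level overlapped. HOXA6 stood at 5.86, 5.05, 5.29 and 3.43 RPKM (C5), 9.13, 3.96, 5.11 and 5.95 (C7), 3.33, 3.53, 3.13 and 2.08 (C9) and 3.29, 3.30, 2.46 and 2.38 (C11). The control library of C7 was the highest of the 16. HOXA7 stood at 20.7, 29.0, 27.4 and 17.6 RPKM (C5), 22.3, 22.2, 31.3 and 23.1 (C7), 17.1, 15.8, 14.5 and 14.1 (C9) and 15.3, 19.5, 17.5 and 15.8 (C11). It was high in all 16 libraries, and C7 and C9, highest and lowest, differed by 1.61-fold.

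HOXA9, which marks the oviduct in mouse, stood at 6.17, 8.59, 9.52 and 3.19 RPKM (C5), 1.83, 2.99, 4.95 and 2.92 (C7), 5.81, 7.83, 8.85 and 10.2 (C9) and 3.38, 4.04, 4.30 and 5.41 (C11). C7 was lowest but overlapped C11, and neighbouring cultures overlapped throughout. HOXA10, a regulator of uterine development, stood at 1.61, 2.74, 3.07 and 1.61 RPKM (C5), 0.418, 0.462, 0.948 and 0.716 (C7), 6.33, 6.03, 9.44 and 11.3 (C9) and 2.2, 3.37, 3.38 and 3.45 (C11). All 4 libraries of C9 lay above and all 4 of C7 below every other library, a 13-fold span of culture means. HOXA11, needed for the uterus, kidney and forelimb in mouse, stood at 1.04, 1.46, 1.82 and 0.935 RPKM (C5), 0.0275, 0.0224, 0.142 and 0.0824 (C7), 2.30, 3.02, 4.24 and 4.89 (C9) and 0.730, 1.70, 1.61 and 1.60 (C11). Its raw counts were 2, 2, 14 and 6 in C7 against 208, 265, 387 and 419 in C9, with C5 at 82, 106, 125 and 77 and C11 at 62, 146, 131 and 123. HOXA11 was singled out in advance for this difference, a 52.7-fold span of culture means with C5 and C11 overlapping between the extremes, so it is described without a test and left out of the counts of called genes. HOXA13, which marks the lower tract and hindgut, stood at 0.436, 0.607, 0.861 and 0.434 RPKM (C5), 0, 0.0154, 0.139 and 0.0189 (C7), 0.350, 0.643, 0.708 and 0.835 (C9) and 0.534, 0.271, 0.743 and 0.734 (C11). It was low everywhere, all 4 C7 libraries lay below the other 12, and C5, C9 and C11 overlapped.

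On means over the 16 libraries HOXB4 was the highest HOXB gene, although in C9 HOXB6 was higher. HOXB2, a hindbrain gene, stood at 4.55, 11.3, 11.8 and 3.13 RPKM (C5), 2.90, 4.60, 4.95 and 4.22 (C7), 2.19, 2.76, 3.33 and 1.95 (C9) and 2.66, 3.67, 4.22 and 3.56 (C11). C5 at 0.5 and 1 mM was far above the rest, while C5 at 0 and 2 mM was not. HOXB3 stood at 11.3, 9.50, 8.45 and 2.68 RPKM (C5), 5.18, 6.64, 4.46 and 4.28 (C7), 4.99, 5.91, 3.55 and 1.42 (C9) and 5.45, 7.32, 4.50 and 3.46 (C11). The cultures overlapped, and the 2 mM library was the lowest of each culture. HOXB4, which promotes expansion of blood stem cells, stood at 48.7, 71.4, 87.0 and 19.5 RPKM (C5), 35.2, 21.8, 25.7 and 46.2 (C7), 11.6, 11.6, 15.0 and 3.30 (C9) and 16.9, 36.3, 27 and 22.0 (C11). C9 lay wholly below the other 12 libraries, with a mean of 10.4 RPKM against 56.6 in C5. HOXB5 stood at 11.5, 14.6, 16.2 and 3.53 RPKM (C5), 5.16, 4.53, 6.58 and 6.33 (C7), 3.43, 3.69, 2.73 and 1.01 (C9) and 3.66, 3.83, 3.89 and 4.55 (C11). It followed HOXB4, high in C5 apart from the 2 mM library. HOXB6 stood at 32.0, 40.6, 47.6 and 18.7 RPKM (C5), 15.3, 11.5, 11.4 and 14.8 (C7), 11.3, 16.7, 13.4 and 11 (C9) and 13.8, 15.5, 10.4 and 7.95 (C11). All C5 libraries were above the other 12. HOXB7 stood at 16.5, 16.9, 16.9 and 10.1 RPKM (C5), 8.44, 7.59, 8.95 and 9.25 (C7), 7.56, 8.38, 7.24 and 7.87 (C9) and 5.92, 6.91, 7.09 and 6.71 (C11). C5 lay above and C11 below all other libraries, although the span of means was only 2.27-fold. HOXB8 stood at 1.25, 1.68, 1.39 and 0.226 RPKM (C5), 0.365, 0.297, 0.404 and 0.546 (C7), 0.353, 0.575, 0.262 and 0.279 (C9) and 0.156, 0.247, 0.261 and 0.0346 (C11). It was 6.51-fold higher in C5 than in C11 on means, with C5 at 2 mM among the low values. Beyond it, HOXB9 and HOXB13 had 1 count in 1 library each.

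HOXC4, HOXC6, HOXC8 and HOXC9 had their highest means in C5 and their lowest in C11. HOXC4 stood at 1.5, 2.39, 2.75 and 0.857 RPKM (C5), 1.07, 0.770, 0.698 and 0.993 (C7), 0.254, 0.442, 0.309 and 0.371 (C9) and 0.311, 0.369, 0.217 and 0.138 (C11). C5 and C7 lay above C9 and C11 with no overlap between these pairs. HOXC6, a mammary and trunk gene, stood at 23.7, 26.1, 37.1 and 14.5 RPKM (C5), 8.20, 8.36, 38.3 and 17.3 (C7), 6.45, 7.51, 9.62 and 18.7 (C9) and 5.76, 3.56, 7.66 and 9.98 (C11). Libraries of C7 alone ran from 8.20 to 38.3 RPKM, and neighbouring cultures overlapped. HOXC8 stood at 10.8, 10.8, 8.27 and 1.31 RPKM (C5), 2.86, 2.57, 2.65 and 2.14 (C7), 1.36, 1.33, 1.23 and 1.09 (C9) and 0.623, 1.04, 0.688 and 0.326 (C11). C5 at 2 mM, at 1.31 RPKM, was far from the other 3 C5 libraries, and C11 lay below all others, so the 11.6-fold span of means rests on 3 of 4 libraries in C5. HOXC9 stood at 10.8, 17.0, 19.7 and 6.58 RPKM (C5), 3.65, 3.90, 9.56 and 9.95 (C7), 6.0, 7.71, 7.79 and 9.81 (C9) and 1.71, 1.93, 2.28 and 1.57 (C11). C11 lay below all others, and the remaining cultures overlapped. HOXC10, a hindlimb and lumbar gene in mouse, stood at 0.0847, 0.129, 0.0389 and 0.0973 RPKM (C5), 0, 0, 0 and 0 (C7), 0.576, 0.579, 0.892 and 0.967 (C9) and 0, 0.0155, 0 and 0.0696 (C11). The 4 C9 libraries were above all others, with 200 counts in C9 against 0 in C7, at least 62.6-fold higher against a floor of 3 counts over the 4 libraries.

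HOXD genes gave the widest separation. HOXD3 stood at 0.120, 0.371, 0.392 and 0.231 RPKM (C5), 0.675, 0.301, 0.787 and 0.869 (C7), 1.02, 1.90, 1.46 and 1.94 (C9) and 0.298, 0.496, 0.681 and 0.578 (C11). C9 lay above all other libraries. HOXD4 stood at 0.223, 0.418, 0.302 and 0.310 RPKM (C5), 2.30, 1.43, 2.09 and 3.77 (C7), 0.689, 1.09, 1.21 and 1.60 (C9) and 0.582, 0.945, 0.981 and 0.769 (C11). C7, the lowest culture in the next genes of the cluster, was highest on mean here, and C5 lay below all other libraries. HOXD8 stood at 3.22, 6.22, 7.90 and 3.63 RPKM (C5), 0.610, 0.529, 1.60 and 1.64 (C7), 12.5, 19.8, 23.8 and 37.9 (C9) and 4.37, 9.23, 11.4 and 8.50 (C11). C9 lay above and C7 below all others, a 21.4-fold span of means, and C9 reached its highest value at 2 mM. HOXD9, which with its group 9 paralogs patterns limb and lower trunk, stood at 1.34, 2.80, 2.33 and 0.786 RPKM (C5), 0.145, 0.152, 0.199 and 0.186 (C7), 6.23, 7.69, 6.45 and 10.9 (C9) and 2.36, 4.49, 3.65 and 2.57 (C11). The same order held, C9 above C11 above C5 above C7 on means, with C5 and C11 overlapping. HOXD10 stood at 0.968, 1.41, 1.57 and 0.452 RPKM (C5), 0.154, 0.0625, 0.359 and 0.230 (C7), 8.70, 9.58, 9.75 and 15.8 (C9) and 2.28, 2.73, 4.07 and 2.89 (C11). No neighbouring cultures in that order overlapped, and the means spanned 54.5-fold. HOXD11, a forearm and kidney gene in mouse, stood at 1.29, 0.915, 1.10 and 0.546 RPKM (C5), 0, 0.0265, 0 and 0 (C7), 5.84, 7.64, 8.01 and 9.21 (C9) and 1.23, 0.550, 1.08 and 0.957 (C11). C7 had 1 count in all against 1148 in C9, a ratio of 1079 with an exact 95% interval of 193 to 42637 that covers counting error only. HOXD12, at 0 to 0.530 RPKM, was too low to be tested in the main comparison of cultures. HOXD13, a digit and hindgut gene, stood at 0.196, 0.426, 0.562 and 0.214 RPKM (C5), 0, 0, 0 and 0 (C7), 0.0732, 0.0251, 0.0846 and 0.386 (C9) and 0.0130, 0, 0.0542 and 0 (C11). It had 93 counts in C5 and 0 in C7, at least 34.2-fold higher against the same floor, and C5 and C9 overlapped.

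**Figure D3:**
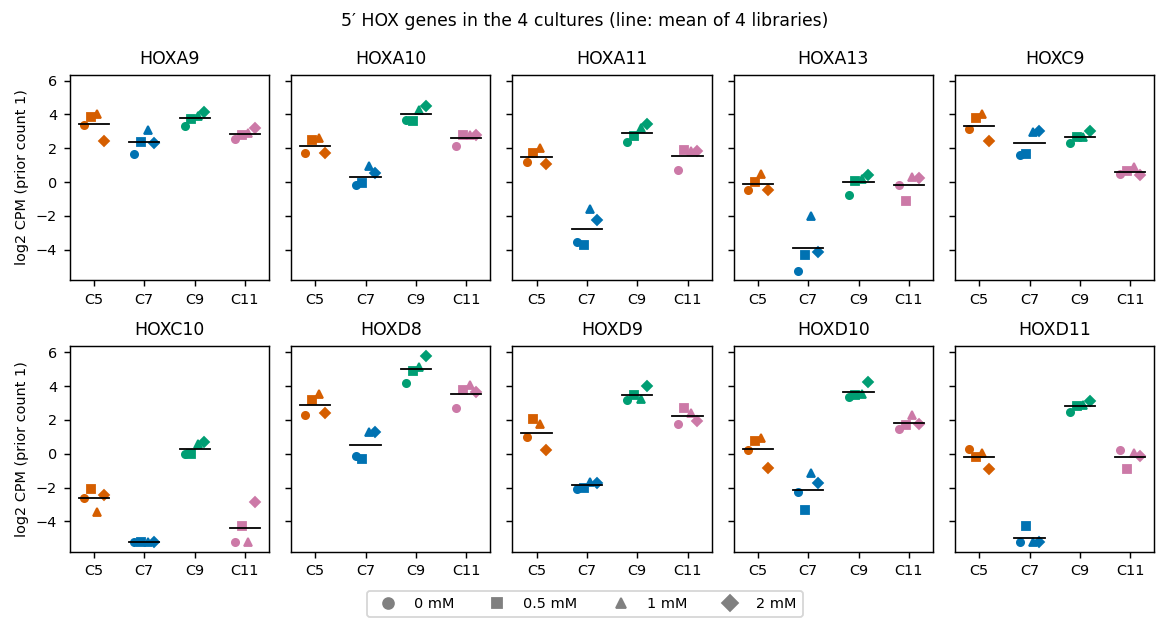
Level of 9 genes of the posterior groups and of HOXD8 (log2 CPM with a prior count of 1) in the 4 cultures, 1 point per library with the dose as marker shape, and a line at the mean of 4 libraries. HOXA10, HOXA11 and HOXD8 to HOXD11 are highest in C9 and lowest in C7 with no overlap, whereas HOXC9 is lowest in C11.

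Cluster ends could also be set against each other inside a library, which does not depend on how libraries were scaled. HOXA10 and HOXA13, without HOXA11, summed to 0.781 to 1.66% of HOXA2 to HOXA7 in C7, 3.86 to 6.01% in C5, 8.30 to 12.9% in C11 and 18.9 to 50.1% in C9, so the 4 ranges did not overlap, with or without the 3 libraries that stand apart. This holds for these genes, and HOXA9, a posterior gene whose cultures overlapped, was left out of the ratio. Levels of HOXA9 to HOXA13 summed to 2.28 to 6.18 RPKM in C7, 6.17 to 15.3 in C5, 6.84 to 11.2 in C11 and 14.8 to 27.3 in C9. In these sums C5 overlapped each of the other cultures. HOXD8 to HOXD11 summed to 30.5 to 75.2% of HOXD3 and HOXD4 in C7, and to between 1001 and 2082% in the other cultures, also with or without the 3 libraries that stand apart. The order of means C9, C11, C5, C7 was shared by HOXA10, HOXA11, HOXD8, HOXD9 and HOXD10, which lie on 2 chromosomes. Over the 16 libraries the log2 CPM of these 5 and HOXD11 correlated at Pearson's r between 0.912 and 0.989 (15 pairs), and after the culture means were taken out r was 0.587 to 0.934 among the first 5 but −0.20 to 0.12 for HOXD11. The genes most like HOXA11 were HOXD8 (r = 0.962), HOXD9 (0.958) and HOXA10 (0.956). The first 5 genes were grouped by their shared order of culture means, and HOXD11 is likewise highest in C9 and lowest in C7. High r over the 16 libraries follows from that choice and is no support for it. With the culture means taken out, HOXC9, whose order of cultures differs, also reached r of 0.770 to 0.879 with the first 5 genes. Such values are therefore not particular to those 5. The points of these correlations share libraries and hens, so r is given as a description.

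The comparison of cultures asked which HOX genes differ among hens by more than the spread among libraries of a hen once dose is accounted for. Of the 29 genes tested other than HOXA11, 26 passed the study's criteria (p under 0.01 and adjusted p under 0.05 in edgeR's quasi-likelihood test over all genes), where 14.8% of the 14384 genes tested did. HOXA2 (adjusted p = 0.121), HOXA5 (0.125) and HOXB3 (0.0843) did not pass. Among those that did, the smallest adjusted p-values belonged to HOXD11 (4.97e-05), HOXA10 and HOXD9 (each 0.00013) and HOXD8 and HOXD10 (each 0.000167). Culture means spanned a median of 2.43 on the log2 scale over these 29 genes, also with genes at the floor set to their bound, against 0.89 over all genes tested. The test has 4 libraries of 1 hen per culture, so it compares these cultures and not hens in general. HOXC10 (38 to 62 counts per library in C9, at most 7 elsewhere) and HOXD13 met the count filter mainly through their highest culture. Their calls therefore follow in part from the filter.

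How many genes passed depended on the libraries. Without the 3 libraries that stand apart, 29 of 30 passed (46.6% of all genes). Leaving out 1 culture gave 11 of 28 without C9 (2.32% of all genes), 12 of 30 without C11 (4.96%), 17 of 28 without C5 (19.2%) and 23 without C7. The share of all genes over these 4 fits ran from 2.32 to 19.2%. The share without C7 lay within this range and is not given singly here. Leaving out 1 library gave 14 to 28 (5.57 to 33.5% of all genes). The count moved by more than 1.5 times for C5 at 0 mM (14), C5 at 1 mM (14), C9 at 1 mM (15), C9 at 0 mM (17) and C11 at 0 mM (17). Without the 0 mM group 5 passed (0.81% of all genes) and without the 1 mM group 6 (1.03%). HOXA10, HOXD8, HOXD9, HOXD10 and HOXD11 passed under each of the 32 alternatives, and HOXC4, HOXC8 and HOXD4 also passed with each culture left out. The share of all genes that did so was not computed, so this is not shown to be particular to HOX genes.

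Libraries were also counted without a test. All 4 C9 libraries were above the other 12 for 7 of the 29 HOX genes other than HOXA11 (HOXA10, HOXC10, HOXD3, HOXD8, HOXD9, HOXD10 and HOXD11), where this held for 1.44% of all genes tested. HOXC10 met the count filter only through C9, with 38 to 62 counts per library there and at most 7 elsewhere. Its place among the 7 was therefore fixed by the filter. All 4 C7 libraries were below for 6 (HOXA10, HOXA13, HOXD8, HOXD9, HOXD10 and HOXD11), against 0.695% of all genes. C11 was below for HOXB7, HOXC8 and HOXC9 (0.264%), C5 above for HOXB6 and HOXB7 (0.918%), C5 below for HOXD4 (0.779%) and C9 below for HOXB4 (0.806%). C7 and C11 were above the others for no HOX gene (0.452 and 0.445% of all genes). In all 14 of 29 HOX genes had 1 culture clear of the other 12 libraries, against 5.62% of all genes. Without the 3 libraries that stand apart the counts were again 7 for C9 above and 6 for C7 below, but the background rose to 15.3 and 4.03% of all genes, and 20 of 29 HOX genes had 1 culture clear of the rest, against 42.1%.

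**Figure D4:**
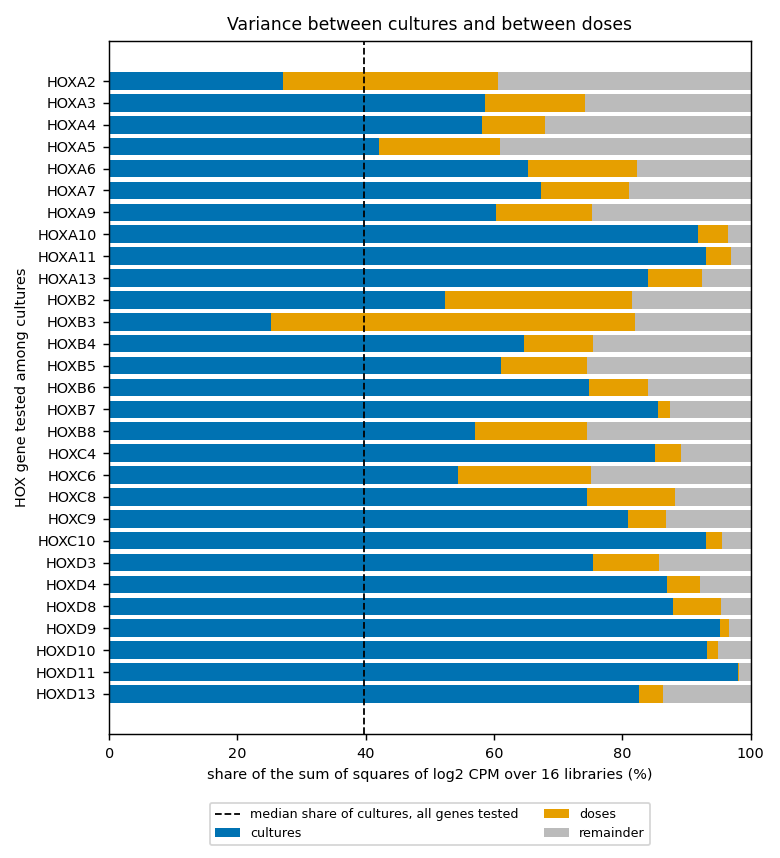
Share of the sum of squares of log2 CPM over 16 libraries that lay between cultures, between doses and in the remainder, for 29 of the HOX genes tested, with the median share of cultures over all genes tested as a dashed line at 39.7%. The bar for cultures exceeds that for doses in 27 of these 29 genes, the exceptions being HOXA2 and HOXB3.

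Split in this way, a median of 74.4% of the variation of the 29 HOX genes other than HOXA11 lay between cultures and 10.4% between doses, where the medians over all genes tested were 39.7 and 18.1%. Without the 3 libraries that stand apart, cultures took 76.6% beyond dose and doses 7.30% beyond culture, against 59.8 and 12% for all genes. The share of cultures was 87.9% in the median for HOXD, 81.0% for HOXC, 62.6% for HOXA and 61.0% for HOXB. The share was highest for HOXD11 at 98.1% and lowest for HOXB3 at 25.2%.

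Markers of other cells also differed among cultures. The test passed 4 of 10 fibroblast markers, 4 of 8 smooth muscle, 4 of 6 epithelial, 7 of 9 macrophage and 3 of 3 T cell markers, 1 of 5 of oviduct and ovarian tumour, and none of the 5 mesothelial, 4 endothelial, 2 B cell and 2 erythroid markers tested, beside 14.8% of all genes. Summed fibroblast markers were 12938 to 67894 CPM in C5, 8187 to 35623 in C7, 9432 to 29877 in C9 and 10923 to 22812 in C11. Summed smooth muscle markers were 1701 to 4011 CPM in C7, the culture lowest in 5′ HOXA and HOXD genes, against 813 to 1670 in C5, 768 to 1278 in C9 and 282 to 2053 in C11. The epithelial markers summed to 318 to 530, 385 to 895, 543 to 813 and 241 to 346 CPM in C5, C7, C9 and C11. Macrophage markers summed to 15.6 to 72.3 CPM in C11 and 5.96 to 28.9 in the others, and T cell markers to 64.1 to 224 CPM over the 16 libraries. All 4 C9 libraries, and no other culture throughout, had levels rising with gene length. With this length relation as a covariate 23 of 29 HOX genes passed (21.8% of all genes), and HOXA4 and HOXB4 were among those that no longer did. The part of cell mixture in the HOX differences was not tested.

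Genes beside the clusters served as a local comparison. SKAP2, an adaptor gene beyond the 3′ end of HOXA, had means of 20.3, 15.8, 12.1 and 12.2 RPKM in C5, C7, C9 and C11 (adjusted p = 0.0534). MTX2 and LNPK, which flank HOXD, had 41.5 to 48.2 and 7.03 to 8.65 RPKM (adjusted p = 0.616 and 0.691), and ATP5MC1 by HOXB13 had 59.5 to 93.8 (0.212). Only SKAP1 on the other side of HOXB passed (adjusted p = 0.0129), at 0.257, 1.36, 0.106 and 1.40 RPKM. EVX2, next to HOXD13, had at most 1 count. Between the outermost HOX genes, the microRNA gene gga-mir-10a had no count in these mRNA libraries and gga-mir-10b and gga-mir-196-4 had at most 2 and 4, and 1 unnamed gene inside HOXC (ENSGALG00000030416) passed, at 0.860, 0.554, 0.218 and 0.217 RPKM (adjusted p = 0.0263).

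HOX proteins bind DNA with TALE homeodomain cofactors, and chromatin proteins keep their genes on or off. Of 9 TALE cofactors tested, 3 passed, all with the highest mean in C5. Among them were MEIS2 (19.7, 9.33, 12.9 and 9.32 RPKM in C5, C7, C9 and C11, adjusted p = 0.00449) and MEIS1 (50.1, 31.2, 33.9 and 27, adjusted p = 0.0373). Of 23 Polycomb genes 2 passed, the histone-binding subunit RBBP7 (6.07, 2.98, 2.63 and 3.60 RPKM) and the chromodomain gene CBX2 (1.85, 2.1, 0.749 and 2.36), and RBBP4 had 175, 264, 183 and 212 RPKM (adjusted p = 0.0598). Of 13 Trithorax and H3K27 demethylase genes, KMT2E passed (20.7, 10.6, 26.3 and 14.0 RPKM), while KMT2C (6.08, 4.53, 16.7 and 5.35) and SETD1A (2.40, 3.09, 3.80 and 2.30) did not. The shares of the 3 lists were 33.3, 8.70 and 7.69%, beside 14.8% of all genes.

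Retinoic acid genes passed in 4 of 14 cases, among them the receptors RARB (4.13, 1.94, 6.36 and 3.22 RPKM) and RXRG (0.541, 18.0, 3.30 and 16.6) and the synthesis enzyme ALDH1A3 (56.8, 37.4, 46.8 and 232). Of a list of CDX, EVX, ParaHox and other homeobox genes, 9 of 12 genes were too low to test, and CDX2 and CDX4 had no count. None of the 3 tested, which are not CDX, EVX or ParaHox genes, passed in edgeR. These were MNX1 at 0.767, 32.3, 1.61 and 4.57 RPKM (unadjusted p = 0.0132, 3 to 7875 counts over libraries), GBX2 at 0.809, 1.83, 1.05 and 2.63 (0.0239) and EN1 at 33.9, 25.3, 18.5 and 19.0 (0.101). Other positional transcription factors passed in 13 of 33 cases, 39.4% against 14.8% of all genes. FOXF2, a forkhead gene of mesenchyme, had no count in C7 and 2.16, 0.952 and 0.179 RPKM in C5, C9 and C11. Its relative FOXF1 had 18.1, 1.57, 5.62 and 33.8 RPKM, so both were lowest in C7, and LHX9, a gonad gene, had 0.186, 0.267, 0.173 and 1.74.

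No HOX gene passed when each dose was compared with control as in the study, without the culture as a term. The study used DESeq2, whereas edgeR was the main test here. In edgeR's test of each dose against control (4 libraries against 4), 0 HOX genes passed at 0.5, 1 or 2 mM, and 0 passed for a slope over dose. The background was as low, at 0% of all genes in the 3 pairs and 0.505% for the slope. At an unadjusted p under 0.05 there were 0 of 28, 0 of 28, 1 of 27 and 1 of 29 HOX genes, against 1.10, 4.77, 10.6 and 14.9% of all genes, and DESeq2 without the culture as a term called 0 in the pairs (0, 0.156 and 1.89% of all genes) and 1 for the slope (3.56%). These unpaired tests left the spread between cultures in their error. Its median share of the variation was 74.4% for the HOX genes other than HOXA11 and 39.7% for all genes. Fewer small p-values than among all genes therefore do not show stability over dose. Without the libraries that stand apart, none of which is at 0 or 1 mM, edgeR again called 0 HOX genes at 0.5 mM, at 2 mM and for the slope (0, 0 and 0.00719% of all genes). Median changes of the HOX genes were 0.21, 0.38 and 0.08 on the log2 scale at 0.5, 1 and 2 mM and −0.06 per mM for the slope, where those of all genes lay within 0.01 of 0. Taken without sign, the median changes of HOX genes were 0.24, 0.41 and 0.50 at 0.5, 1 and 2 mM. Those of all genes were 0.27, 0.25 and 0.33. Intervals were wide, for example −0.93 to 3.20 for HOXD8 at 1 mM, so these doses are not shown to leave HOX genes unaltered.

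HOXB3 had the smallest p-value of the HOX genes at 2 mM and for the slope. It averaged 6.73 ± 3.04 RPKM in controls and 7.34 ± 1.55, 5.24 ± 2.19 and 2.96 ± 1.22 at the 3 rising doses (SD, n = 4), and was below its own control in 4 of 4 cultures at 1 and at 2 mM. The log2 difference at 2 mM was −1.17 (SE 0.421, 95% interval −2.12 to −0.21, adjusted p = 0.391), and the slope was −0.65 per mM (SE 0.189, adjusted p = 0.112). With the culture as a replicate block the slope was −0.64 with an adjusted p of 0.0304, which passes, at a background of 4.94% of all genes. It also passed with the length relation as a covariate (0.0306), with both block and covariate (0.0127, 16.2% of all genes) and in DESeq2 (0.016). The largest part of the difference came from C5 (−2.07 on the log2 scale at 2 mM) and C9 (−1.80), with −0.28 in C7 and −0.65 in C11. The library of C5 at 2 mM is one of those that stand apart. Without those libraries the edgeR slope of HOXB3 without the block did not pass (0.00719% of all genes did). No fit with the block was run without them.

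HOXD8 went the other way. It averaged 5.18 ± 5.13 RPKM in controls and 8.94 ± 8.08, 11.2 ± 9.36 and 12.9 ± 16.9 at the 3 rising doses (SD, n = 4), and was above its control in 4 of 4 cultures at 1 and 2 mM. The log2 difference was 1.13 at 1 mM (SE 0.913, adjusted p = 1.00) and 1.36 at 2 mM (SE 1.07, adjusted p = 0.725). With both the replicate block and the length relation it was 1.26 (adjusted p = 0.0453) and 1.25 (adjusted p = 0.0377), which pass, at backgrounds of 1.76 and 5.43% of all genes. In that fit HOXC6 also passed at 2 mM (1.05, adjusted p = 0.0486), although C5 was lower at 2 mM. With 8 libraries for terms of culture, length relation and dose, that fit leaves few residual degrees of freedom. With the block alone edgeR called 0% of all genes at 1 mM and at 2 mM. DESeq2 with the block, an alternative added after the data were seen, called none at 0.5 mM (0.00518% of all genes), HOXA10, HOXB2 and HOXD8 at 1 mM (3.28%), HOXA6, HOXB3 and HOXD8 at 2 mM (9.56%), and HOXB3 and HOXD8 for the slope (8.52%).

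**Figure D5:**
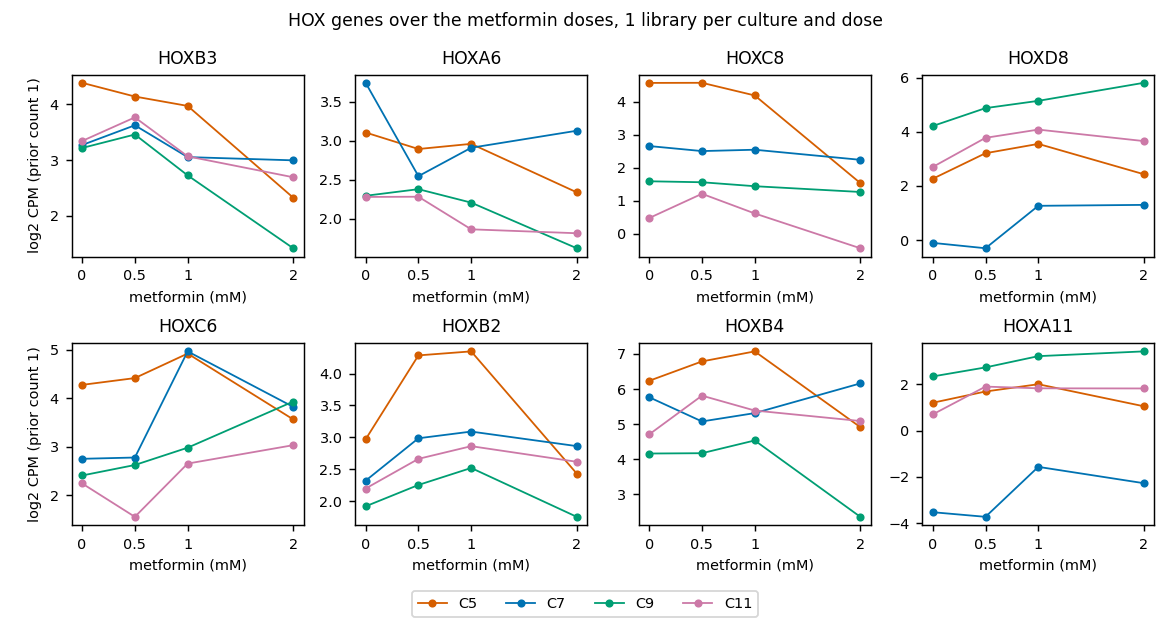
Level of 8 HOX genes (log2 CPM with a prior count of 1) over the 4 metformin doses, 1 line per culture and 1 library per point. HOXB3 is below its control in all 4 cultures at 2 mM and HOXD8 above it, while HOXB4 and HOXC8 drop steeply in C5 at 2 mM and the gap of HOXA11 between C7 and the others stays at every dose.

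Values at 2 mM set against control varied from culture to culture. The log2 difference of HOXB4 from control was −1.32 in C5 and −1.80 in C9, and 0.39 and 0.38 in C7 and C11. HOXB5 was alike, at −1.70 and −1.75 against 0.30 and 0.31. In C5 the 2 mM library, one of those that stand apart, held HOXC8 at 1.31 RPKM against 10.8 in control and HOXA2 at 1.07 against 7.67. A test of whether the slope over dose differed among cultures (3 culture-by-dose terms in edgeR, 8 residual degrees of freedom), added after the data were seen, called 0 of 31 HOX genes and 0% of all genes. In this edgeR test HOXB5 (unadjusted p = 0.0444) and HOXC8 (0.0457) were the HOX genes under 0.05, as were 1.73% of all genes, and each had an adjusted p of 1. It again called 0 HOX genes and 0% of all genes without the libraries that stand apart, where HOXB5 was the HOX gene under 0.05 in edgeR (unadjusted p = 0.00853, adjusted p = 0.961) beside 4.82% of all genes.

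Directions were counted too, without a test and against controls that the doses share. At 1 mM 14 of the 28 HOX genes tested, HOXA11 included, were above their own control in 4 of 4 cultures, where 15.2% of all genes were, and HOXA6 and HOXB3 were below in 4 of 4 (15.0%). The genes above included HOXA3, HOXA4, HOXA9, HOXA10, HOXA13, HOXB2, HOXC6, HOXC9, HOXD3, HOXD8, HOXD9 and HOXD10. At 2 mM only 4 of 27 were above in each culture, among them HOXD3, HOXD4 and HOXD8 (17.3% of all genes), and HOXA6, HOXB3, HOXB6 and HOXC8 were below (18.6%). At 0.5 mM HOXA9, HOXB2, HOXC9 and HOXD9 were above (5.19%) and none was below (5.88%). HOXA11 was above control in 4 of 4 cultures at 1 mM and 3 of 4 at 2 mM, and at each dose its lowest level was in C7 and its highest in C9.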

How the data were processed

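RNA of 16 COVCAR libraries (4 cultures at 4 metformin doses, 24 h) was sequenced as stranded 75-base single reads. According to the methods and the submitters' processing notes, the authors used bcl2fastq 2.20.0 and FastQC, aligned reads to GRCg6a with HISAT2 2.1.0 and counted them with featureCounts on exons of the reverse strand, with a read over overlapping genes counted for each. The deposited values are raw counts per gene and library with exonic lengths. The authors' DESeq2 tables hold fold changes, p-values and scaled counts per dose and were not used. Wells were treated in triplicate, and how they became 1 library is not given in the sources used here.

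Counts were tested with edgeR 4.0.16 (R 4.3.3, TMM scaling, filterByExpr, quasi-likelihood) over all genes: the cultures as 3 terms beside dose in 16 libraries, each dose against control in 8 libraries without the culture (as the study compared them), and a slope over dose. A gene was called at p under 0.01 and Benjamini-Hochberg adjusted p under 0.05. RPKM is the scaled CPM per 1000 exonic bases, and log2 CPM used a prior count of 1. Alternatives were DESeq2 1.42.0, RLE scaling, other count filters, other dose terms, a length covariate (the slope of log2 CPM on log2 length over 10632 genes averaging at least 100 counts), the culture as a replicate block, and leaving out libraries, cultures and doses. The tests were tried on simulated counts. In the simulated dose tests the cultures did not differ, so they do not show what the unpaired dose tests can detect here. P-values measure the spread between these libraries, which may be technical.

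The culture number pairs libraries, since it names the hen. Deviations of libraries from their dose means correlated with a median r of 0.613 within a culture (24 pairs) and −0.217 between cultures (72 pairs). No 2 libraries were identical. Values in every library are given for HOX genes averaging at least 1 RPKM or called among cultures. The 3 genes of each other list with the smallest p, and genes beside or between HOX genes, are named, other than some items not reported here. The members and lists were chosen with earlier results of these data known.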

Additional observations from a re-analysis of the deposited data

Results flagged for a closer look

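Within the 4 libraries of a dose, a library was picked out where it lay far from the other 3 relative to their whole range (Dixon's ratio). This held in 19 of 120 gene and dose groups, 11 times for C5, 8 times for C9 and never for C7 or C11. HOXC10 and HOXD13 met the count filter mainly through C9 and C5, so their flags for these cultures follow in part from the filter. The ratio was taken on CPM without logs, and the 4 libraries of a group are 4 different cultures. No chance rate is therefore set beside this count. Without logs the low values of a group tend to lie close together. A low library is then hardly ever picked out, so the absence of C7 and C11 is not read as a result. The groups are not independent, since the same libraries recur in them.

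C5 was the high library for genes of the anterior and central groups and for HOXD13. HOXA3 was 12.1 RPKM at 0.5 mM against 4.76 to 5.23 in the other cultures. HOXB3 was 11.3 in control against 4.99 to 5.45. HOXB4 was 87.0 at 1 mM against 15.0 to 27. HOXB5 was 14.6 at 0.5 mM against 3.69 to 4.53. HOXB6 was 47.6 at 1 mM against 10.4 to 13.4. HOXB7 was 16.9 at 0.5 mM against 6.91 to 8.38, and HOXB8 was 1.39 at 1 mM against 0.261 to 0.404. HOXC6 was 23.7 in control against 5.76 to 8.20, and HOXC8 was 10.8 at 0.5 mM against 1.04 to 2.57. HOXD13 was 0.426 at 0.5 mM and 0.562 at 1 mM, against at most 0.0251 and 0.0846. None of these came from C5 at 2 mM.

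C9 was the high library for 5′ genes and HOXD3. HOXC10 was 0.576, 0.892 and 0.967 RPKM at 0, 1 and 2 mM against at most 0.0847, 0.0389 and 0.0973. HOXD11 was 7.64, 8.01 and 9.21 at 0.5, 1 and 2 mM against at most 0.915, 1.10 and 0.957. HOXD10 was 15.8 at 2 mM against 0.230 to 2.89, and HOXD3 was 1.90 at 0.5 mM against 0.301 to 0.496.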

How the results depend on the processing

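HOX genes called among cultures numbered 21 to 27 under DESeq2, RLE scaling, other filters, other dose terms and the length covariate, beside 26 in the main test. Of all genes, 14.8% were called in the main test, 23.8% in DESeq2 and 21.8% with the length covariate. The shares under RLE scaling, other filters and other dose terms are not given here, so those counts are not read as an excess. Leaving out a library, a culture or a dose gave 5 to 28 (0.81 to 33.5% of all genes). In the tests of 0.5, 1 and 2 mM and of the slope, leaving out a library or a culture gave 0 to 0. There the share of all genes was 0% in the pairs and 0 to 1.43% for the slope. At 1 mM 1 HOX gene was called with the replicate block and the length covariate and 3 with the replicate block in DESeq2, and at 2 mM these were 2 and 3. The shares of all genes were 1.76 and 3.28% at 1 mM and 5.43 and 9.56% at 2 mM. For the slope DESeq2 (3.56% of all genes), the length covariate (share not given here), the replicate block (4.94%), and the block with the length covariate (16.2%) each called 1. The block in DESeq2 called 2 (8.52%). These counts are not read as an excess of HOX genes. The replicate block changed no other count. The DESeq2 block, a slope without the 2 mM libraries, the culture-by-dose test, and the variance shares and non-overlap counts without the libraries that stand apart were chosen after seeing the data. With single libraries left out, the log2 difference of HOXD8 at 2 mM ran from −0.16 (without C9 at 2 mM) to 2.27 (without C9 in control), its slope from −0.063 to 0.82 per mM (the same libraries), and HOXA10 at 1 mM from −0.078 (without C9 at 1 mM) to 1.59 (without C9 in control). These unpaired comparisons then lacked, on 1 side, the culture highest in both genes. Over the single genes in the comparison of cultures, 185 values with libraries left out no longer passed, 6 came to pass and 503 kept their side of the threshold. The value there is a span without sign, so whether the order of cultures held was not counted. HOX genes under the filter, such as HOXD12, are limited by depth.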
